A study of Mus musculus with 8 samples.

Results

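The Z-disc, M-line and titin genes are 9 genes of the sarcomere lattice: Ttn, Myom1, Myom2, Actn2, Ldb3, Myoz2, Tcap, Csrp3 and Des. They were chosen by name, as the probesets annotated to these symbols or their synonyms, and each gene was read by its brightest probeset, 9 of 18194 genes in all. A probeset is a group of short probes read together, and it may read 1 or more transcripts. RNA came from whole hearts of 4 WT and 4 SRC-2 KO male mice on a mixed C57B/6Jx129Sv background, unstressed, fed ad libitum and 10 to 12 weeks old by the labels, and each heart was hybridised to its own Affymetrix mouse array. The knockout is germline and not restricted to cardiac myocytes.

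The sarcomere is the contractile unit of striated muscle. At its ends, the Z-discs, a lattice of α-actinin anchors the thin filaments of neighbouring sarcomeres, and at its centre, the M-line, myomesins hold the thick filaments in register. Titin, the largest known protein, runs from Z-disc to M-line and acts as a molecular spring, and desmin filaments tie neighbouring Z-discs to each other and to the cell membrane. Mutations in many of these genes cause cardiomyopathy.

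Ncoa2, which encodes SRC-2, had signals of 1660 to 2134 in the WT and 235.1 to 267.4 in the KO hearts, so the labels hold for every array (KO minus WT log2 ratio −2.95, adjusted p = 5.8e-04). All 9 genes described here lie within the brightest 2% of genes, at ranks 47 to 342. Signals are intensities on a linear scale in which each array has the same trimmed mean, and log2 of the signal was compared between genotypes with limma. The common-variance fit draws every gene's spread toward 1 shared value, and the trended fit toward that of genes with similar signal. A gene was called at a p-value under 0.05 after Benjamini-Hochberg adjustment over all genes. In what follows the log2 ratio (in plots, log2 fold change) is the KO minus the WT mean of log2 signal, SE is its standard error in the common-variance fit, and where a pair of adjusted p-values is given the first belongs to that fit and the second to the trended one. Precision is set by having 4 arrays of each genotype, and lower abundance of a cell type and less RNA per cell cannot be told apart in RNA of a whole tissue.

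None of the 9 genes was called in either fit, where the common-variance fit called 0.0055% of all genes higher and 0.0165% lower and the trended one 0.121% and 0.253%. No test compared the genes with each other. Myom1, Tcap and Des had higher values in the KO hearts by 0.35 to 0.44 on the log2 scale, Ttn, Actn2, Ldb3, Myoz2 and Csrp3 lay within 0.13 of the WT mean, and the probesets of Myom2 disagreed. At an unadjusted p under 0.05, 2 of the 9 (Myom1 and Des) were higher by the common-variance fit, against 3.95% of all genes, and 3 (with Tcap) by the trended one, against 5.33% of all genes and 20.6% of the brightest 2%. At the same limit 0 of the 9 were lower by either fit, against 6.09% and 7.22% of all genes and, by the trended fit, 3.57% of the brightest 2%.

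**Figure D1:**
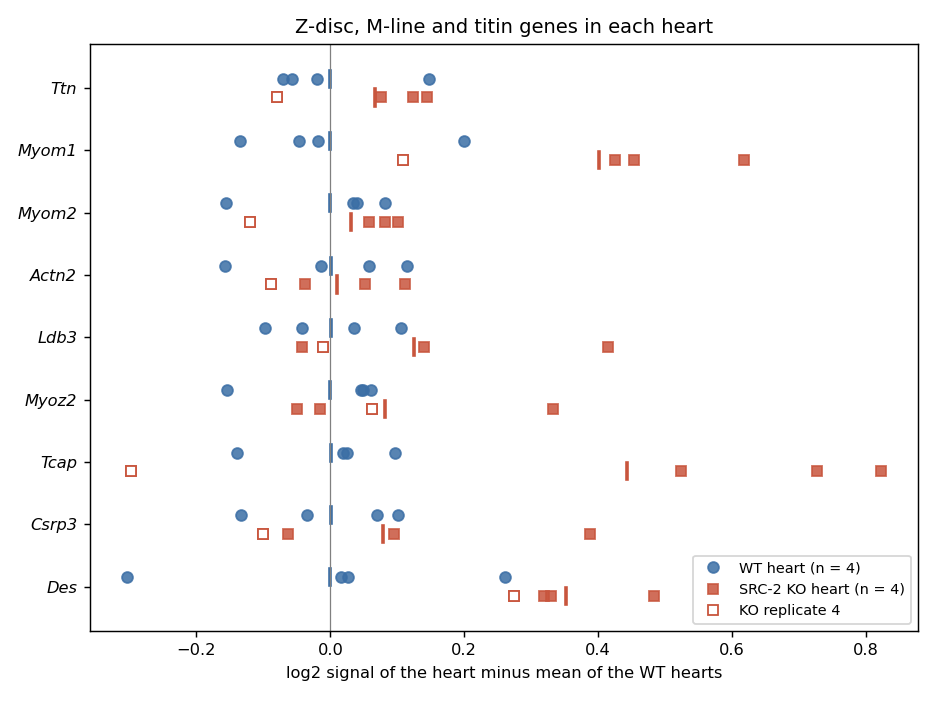
Deviation of each heart's log2 signal from the WT mean (x axis) for the 9 genes (y axis). Circles are WT hearts (n = 4), squares SRC-2 KO hearts (n = 4), the open square is KO replicate 4 and short vertical bars are group means. The KO squares lie right of all WT circles for Des alone, 3 of the 4 do so for Myom1 and Tcap, and the groups overlap for the other genes.

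Promoter sequence is shown for the 2 genes with the smallest p-values and for Actn2, whose mean differed least, so that genes with unlike log2 ratios stand side by side. The 250 bases before the start site were read from RefSeq (GRCm38.p6), where 7 of the 9 genes matched, with 1 start site each except for Ldb3 and Csrp3, and Myom2 and Tcap did not match. Capitals mark every match, on either strand, to the E-box CANNTG, the CArG box bound by SRF, the MEF2 site, the MCAT element CATTCC, the GATA site AGATAA, the TATA box TATAAA and the receptor half-site AGGTCA.
Myom1, chr17:71019307-71019556, plus strand: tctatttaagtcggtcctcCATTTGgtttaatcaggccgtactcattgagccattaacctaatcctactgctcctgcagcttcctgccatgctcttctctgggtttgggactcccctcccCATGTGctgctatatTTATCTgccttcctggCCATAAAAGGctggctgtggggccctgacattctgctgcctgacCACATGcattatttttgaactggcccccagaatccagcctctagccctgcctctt
Des, chr1:75360042-75360291, plus strand: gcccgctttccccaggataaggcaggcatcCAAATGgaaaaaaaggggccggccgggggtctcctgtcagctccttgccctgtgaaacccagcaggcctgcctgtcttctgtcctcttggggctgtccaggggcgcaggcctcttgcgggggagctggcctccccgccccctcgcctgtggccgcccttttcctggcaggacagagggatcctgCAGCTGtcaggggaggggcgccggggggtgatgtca
Actn2, chr13:12340733-12340982, minus strand: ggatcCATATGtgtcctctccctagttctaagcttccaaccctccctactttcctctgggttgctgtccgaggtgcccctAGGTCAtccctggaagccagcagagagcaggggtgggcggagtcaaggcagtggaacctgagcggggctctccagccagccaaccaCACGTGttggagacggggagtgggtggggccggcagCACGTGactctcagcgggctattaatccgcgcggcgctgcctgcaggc
The Myom1 window holds 3 E-boxes, a GATA site and the CArG box CCATAAAAGG, which starts 99 bases before the start site. The Des window holds 2 E-boxes, and that of Actn2 holds 3 E-boxes and a receptor half-site. The 7 genes have 9 windows. A CArG box was found in 3 of the 9 windows, for 2 of the 7 genes, Myom1 and Ldb3, whose 2 windows overlap. It was found in 1.47% of all 32851 promoter windows of this length. An E-box was found in 7 of the 9 windows, for 6 of the 7 genes, and in 66.2% of all windows. A MEF2 site was found for Ttn and Myoz2 (2.92% of all windows), a GATA site for Myom1 (9.99%) and a half-site for Actn2 (14.0%), while CATTCC and TATAAA were found for 0 of the 7 genes (12.6% and 12.4%). No matches overlapped, and a match is a description of the letters and does not show that a factor binds there.

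The titin signals of the genotypes lay close together. Ttn was read by 6 probesets, and its brightest had signals of 44869, 43726, 50416 and 43309 in WT hearts 1 to 4 and of 50307, 49567, 47906 and 43045 in KO hearts 1 to 4. WT replicate 3 was the highest and KO replicate 4 the lowest of the 8 hearts, and the groups overlapped. The log2 ratio was 0.066 (SE 0.11, 95% interval −0.18 to 0.32, adjusted p = 0.849 and 0.847). The other 4 probesets with a mean log2 signal above 10 had values of 0.14, −0.052, 0.0099 and 0.020, with SEs of 0.14, 0.23, 0.26 and 0.15. The remaining probeset of Ttn, near background with a mean log2 signal of 5.64, had a value of 0.83 (SE 0.72).

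Myom1, which encodes the M-line myomesin of all striated muscle, had signals of 15157, 14251, 17986 and 15455 in the WT hearts and of 24020, 21021, 21442 and 16884 in the KO hearts. KO hearts 1 to 3 lay above every WT heart, and KO replicate 4 lay below WT replicate 3. Group means were 15712 ± 1600 and 20842 ± 2953 (SD, n = 4), a log2 ratio of 0.40 (SE 0.14, 95% interval 0.066 to 0.74, adjusted p = 0.45 and 0.172). Without KO replicate 4, Myom1 passed in the trended fit (log2 ratio 0.50, adjusted p = 0.042), a fit that called 0.572% of all genes and 1.37% of the brightest 2% higher and 1.19% of all genes lower. Only 1 probeset reads this gene.

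Myom2 encodes the second myomesin, found in adult heart and fast skeletal muscle. Its brightest probeset (of the x_at type, whose probes may also bind other transcripts) had signals of 45991, 46180, 47524 and 40304 in WT and of 47523, 48159, 46744 and 41322 in KO hearts. These values overlapped throughout, with replicate 4 the lowest heart of each genotype, and the log2 ratio was 0.030 (SE 0.11, 95% interval −0.22 to 0.28, adjusted p = 0.937 and 0.939). The next probeset read lower in the KO hearts, with 18445, 16424, 20372 and 19814 in WT and 14566, 17640, 15525 and 13766 in KO hearts. Here KO replicate 2 lay above WT replicate 2 and the other 3 KO hearts lay below every WT heart. Its log2 ratio was −0.29 (SE 0.14, adjusted p = 0.625 and 0.327 over all probesets with 1 gene). The third probeset, like the brightest, is of the x_at type. It had 12791, 9719, 14387 and 14306 in WT and 8459, 10513, 7915 and 10294 in KO hearts. Its log2 ratio was −0.46 (SE 0.18, adjusted p = 0.574 and 0.212). KO hearts 1 and 3 lay below every WT heart, and the other KO hearts lay between WT replicate 2 and WT replicate 1. The direction for Myom2 thus depends on the probeset, and its remaining probeset lies near background (mean log2 signal 3.40).

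**Figure D2:**
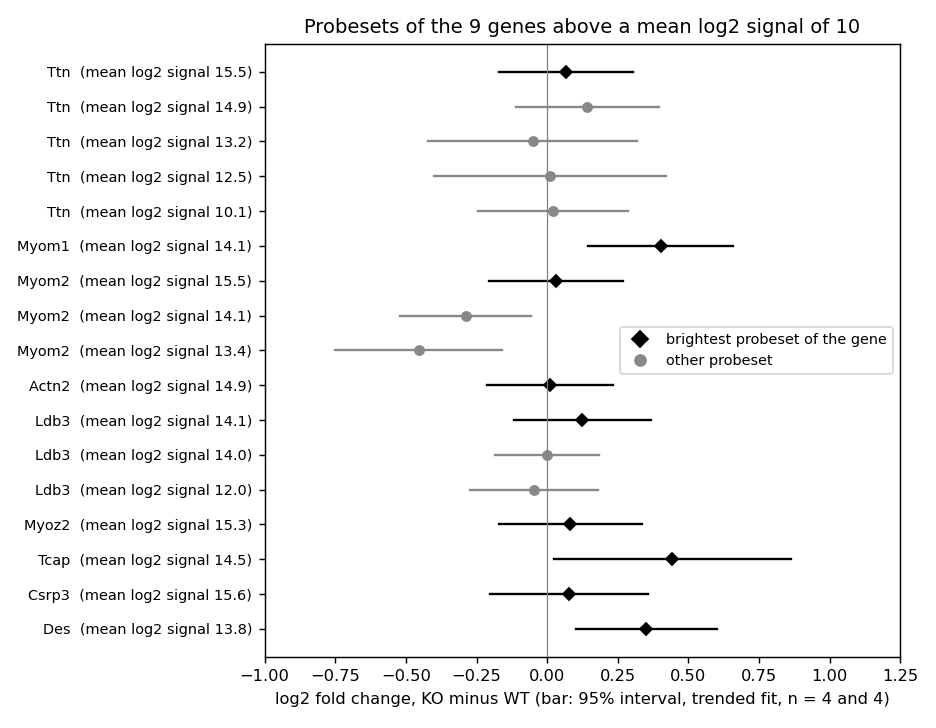
log2 ratio of KO against WT (x axis) for the 17 probesets of the 9 genes with a mean log2 signal above 10, each named by its gene and mean log2 signal (y axis). Diamonds are the brightest probeset of a gene, circles the others, and bars are 95% intervals of the trended fit (n = 4 and 4). The 5 Ttn and 3 Ldb3 probesets lie around 0, while 2 of the 3 Myom2 probesets lie at −0.29 and −0.46 and the brightest at 0.030.

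Within a heart, the difference between the log2 signals of Myom2 and Myom1 separated the genotypes by each of the 3 bright Myom2 probesets. The Myom2 probeset near background was not taken. With the WT mean set to 0, Myom2 minus Myom1 was −0.14 to 0.18 in the WT and −0.54 to −0.23 in the KO hearts by the brightest probeset, a mean difference of −0.37 (SD 0.15 in WT and 0.13 in KO, n = 4). By the other 2 bright probesets the mean difference was −0.69 and −0.86, with KO hearts at −0.98 to −0.51 and at −1.20 to −0.41. Ttn minus Myom1 behaved in the same way (−0.053 to 0.078 among WT and −0.47 to −0.19 among KO hearts), so Myom1 stood higher relative to both of its neighbours in the thick filament lattice in each of the 4 KO hearts. KO replicate 4 showed the smallest shift by 3 of these 4 measures, all but that of the second Myom2 probeset, where KO replicate 2 did. These differences show unequal change between probesets and not the level of any 1 gene, and they carry no test. All 4 measures share the Myom1 values, so they are not separate results. The share of other gene pairs that separate the genotypes is not known here.

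Actn2, the α-actinin that crosslinks thin filaments in the Z-disc, had signals of 32474, 26876, 31218 and 29691 in WT and of 32411, 31085, 29208 and 28225 in KO hearts. The KO hearts lay inside the WT range, and the log2 ratio was 0.0095 (SE 0.11, 95% interval −0.24 to 0.26, adjusted p = 0.981 and 0.98).
Ldb3, also called ZASP or Cypher, binds α-actinin through a PDZ domain. It had signals of 17442, 15147, 15733 and 16617 in WT and of 21597, 15731, 17868 and 16092 in KO hearts, so KO hearts 1 and 3 lay above the WT range and the other KO hearts within it. The log2 ratio was 0.13 (SE 0.13, 95% interval −0.19 to 0.44, adjusted p = 0.766 and 0.695), and those of its other probesets were −0.00027 and −0.046 (SEs 0.11 and 0.14).
Myoz2, a calsarcin that ties calcineurin to α-actinin, had 40257, 40699, 40352 and 35077 in WT and 49128, 38629, 37687 and 40747 in KO hearts. KO replicate 1 stood above all other hearts and KO replicate 4 just above the WT range, with the other KO hearts inside it, and the log2 ratio was 0.082 (SE 0.12, 95% interval −0.21 to 0.37, adjusted p = 0.838 and 0.822).
Csrp3, the muscle LIM protein of the Z-disc, had 50238, 51382, 46743 and 43647 in WT and 62635, 45826, 51155 and 44653 in KO hearts, with KO replicate 1 above the WT range and the other KO hearts inside it. Its log2 ratio was 0.079 (SE 0.14, 95% interval −0.25 to 0.41, adjusted p = 0.862 and 0.847). Without KO replicate 1 the values of Myoz2 and Csrp3 were −0.00088 and −0.024.

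Tcap, or telethonin, caps the end of titin at the Z-disc. Its signals of 20749, 20670, 21795 and 18520 in the WT hearts were close together, and the KO hearts had 33755, 29304, 36056 and 16595. KO hearts 1 to 3 lay well above the WT range and KO replicate 4 below it, so the SD of log2 signal was 0.099 in WT and 0.51 in KO hearts, the widest spread of the 9 genes. The log2 ratio was 0.44 (SE 0.25, 95% interval −0.14 to 1.03, adjusted p = 0.589 and 0.375). Without KO replicate 4 it was 0.69 and passed in the trended fit only (adjusted p = 0.0118), so the call turned on that heart and on the fit. That fit called 0.572% of all genes and 1.37% of the brightest 2% higher and 1.19% of all genes lower. Tcap and Csrp3, which are both bound at the titin end of the Z-disc, did not keep a fixed ratio. Csrp3 minus Tcap was −0.34, −0.59 and −0.73 in KO hearts 1 to 3, 0.20 in KO replicate 4 and −0.13 to 0.082 in the WT hearts.

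Des encodes desmin, the intermediate filament protein of muscle. It had signals of 12618, 10043, 14851 and 12534 in WT and of 15462, 17317, 15575 and 14981 in KO hearts. It was the only 1 of the 9 genes whose 4 KO hearts all lay above the 4 WT hearts, which 3.12% of all genes and 15.9% of the brightest 2% did. No gene of the 9 had all KO hearts below the WT hearts, which 3.72% of all genes and 0.824% of the brightest 2% did. The gap for Des was small, since WT replicate 3 lay just below KO replicate 4. Means were 12512 ± 1965 and 15834 ± 1022 (SD, n = 4), a log2 ratio of 0.35 (SE 0.14, 95% interval 0.022 to 0.68, adjusted p = 0.479 and 0.212). Its other probeset lies near background (mean signal 29.2 in WT and 73.8 in KO hearts). Des minus Actn2 within a heart, with the WT mean set to 0, was −0.15 to 0.20 among WT and 0.21 to 0.43 among KO hearts. This difference holds the values of Des, which did not overlap by themselves. Desmin is also made by smooth muscle. The mean log2 signal of the 6 markers was 8.52 to 9.48 among WT and 8.01 to 10.1 among KO hearts, 4 of the 6 had lower values, and 1, Acta2, was called higher in the trended fit (log2 ratio 0.74, adjusted p = 0.0422). The part of these cells in the value of Des was not tested.

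**Figure D3:**
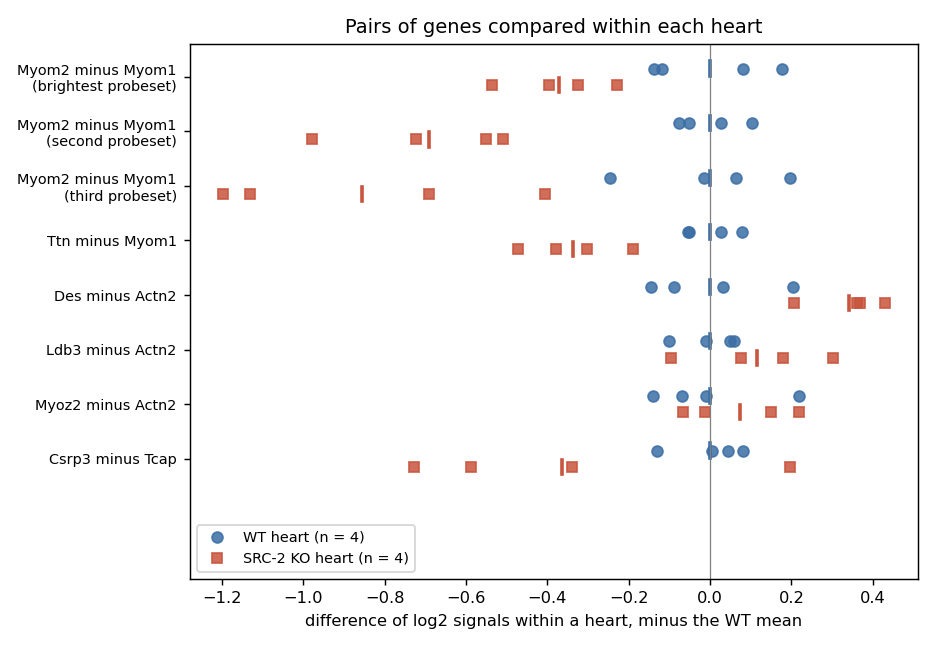
Difference between the log2 signals of 2 genes in the same heart, with the mean of the WT hearts set to 0 (x axis), for 8 pairs (y axis). Circles are WT hearts (n = 4), squares SRC-2 KO hearts (n = 4) and short vertical bars are group means. The genotypes do not overlap for the 3 Myom2 and Myom1 pairs, for Ttn minus Myom1 or for Des minus Actn2, and overlap for the others, Csrp3 minus Tcap through KO replicate 4. Pairs that share a gene are not separate results, and the share of other gene pairs without overlap is not known here.

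The 9 genes varied together from heart to heart. With each genotype's mean removed, the log2 signals of 34 of the 36 pairs had a Pearson r above 0 over the 8 hearts, with a median of 0.52 and a highest value of 0.92 for Ttn and Myom1. Csrp3 went with Myoz2 (0.81) and Ldb3 (0.79), and Des went against Csrp3 (−0.30) and Myoz2 (−0.16). The points share arrays and their scaling, and these values are a description. KO replicate 4 was the lowest KO heart for 7 of the 9 genes and KO replicate 1 the highest for 6, while among WT hearts replicate 3 was the highest for 5 and replicate 4 the lowest for 5. Across genes above the median signal, KO replicate 4 had a mean r of 0.9746 with the other KO and 0.9764 with the WT hearts. Every other heart had a higher mean r with its own genotype. KO replicates 1 and 3 had similar values with the other KO hearts (0.9757 and 0.9752). The lowest values with the other genotype were those of KO replicate 3 (0.9613) and WT replicate 2 (0.9627). Of the 9088 genes above the median signal that are not among the 9, those most like their mean over the 8 hearts were Phyh (Pearson r 0.983), Ptgds (0.965), Ugp2 (0.953), Grb14 (0.953) and 2310015A10Rik (0.948). They were picked as the highest of 9088 values, each over 8 hearts, which alone favours high values. How other sets of equally bright genes correlate is not known here.

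Over all genes the log2 ratio rose with the signal. By its brightest probeset each of the 9 genes had a higher KO mean (median log2 ratio 0.082), but 87.9% of the 364 genes in the brightest 2% did so too, with a median of 0.16, where the median over all genes was −0.027. A higher KO mean was thus what most genes of this signal had, and of the 9 genes Tcap, Myom1 and Des alone lay above the median of such genes. Tcap, Myom1 and Des, the genes with the largest log2 ratios, are with Ldb3 the dimmest of the 9. After quantile normalization, which gives every array the same distribution, the values of Ttn, Myom2, Actn2, Myoz2 and Csrp3 turned negative (−0.12 to −0.063), those of Myom1, Tcap and Des stayed at 0.31, 0.34 and 0.28, and that of Ldb3 was 0.031.

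**Figure D4:**
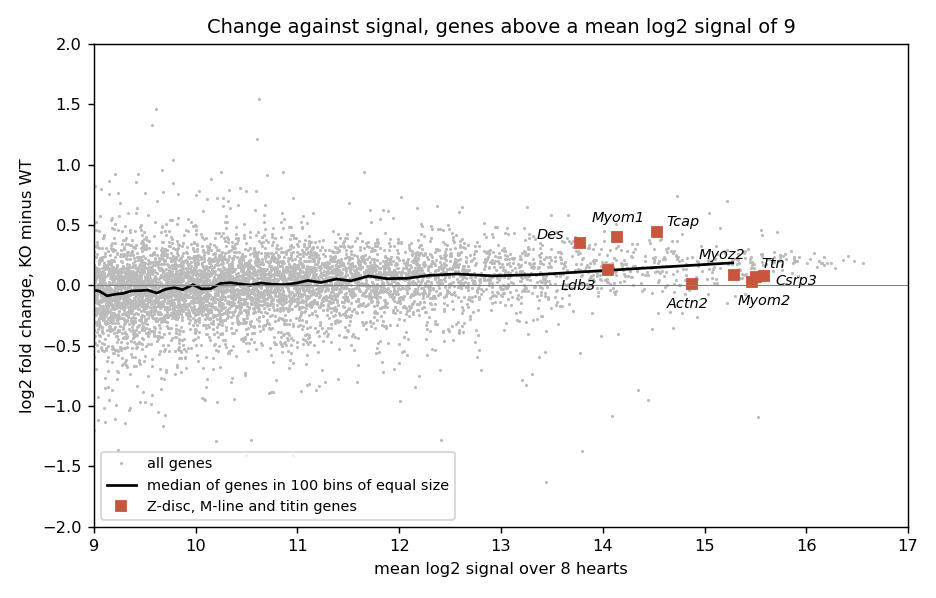
log2 ratio of KO against WT (y axis) against mean log2 signal over the 8 hearts (x axis) for the genes above a mean log2 signal of 9, of which 9 of 6392 lie outside the axes. Grey points are genes, the line is the median in 100 bins of equal size over all genes, and red squares are the Z-disc, M-line and titin genes. The line rises with signal, Tcap, Myom1 and Des lie above it and the brightest members lie below it.

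Other genes of the sarcomere and its surroundings were taken as 5 lists, whose medians were not compared by a test. After quantile normalization those medians were 0.019 for other Z-disc genes, −0.026 for other M-line and titin-linked genes, −0.0085 for intermediate filament and costamere genes, 0 for thick and thin filament genes and 0.037 for chaperones and turnover genes. None of the 24 other measured Z-disc genes was called in either fit, and 13 had higher and 11 lower values (median log2 ratio 0.021). Fhl2, a LIM protein that binds titin, had higher values in all 4 KO hearts, 42504 to 51319 among WT and 55711 to 68597 among KO hearts (log2 ratio 0.44, SE 0.11, adjusted p = 0.361 and 0.129). Synpo2, an actin-bundling Z-disc protein, had 0.21 and the PDZ-LIM gene Pdlim1 −0.25 (adjusted p = 0.41 and 0.33 in the trended fit). Csrp1, the smooth muscle relative of Csrp3, had −0.28, and nebulin, Neb, a thin filament ruler of skeletal muscle that is dim in these hearts, −0.90 (SE 0.46).
Among 18 other M-line and titin-linked genes, 11 had higher and 7 lower values (median 0.059), and none was called. Fhl1, which binds the titin spring, had 10497 to 12393 among WT and 13563 to 15951 among KO hearts (log2 ratio 0.37, SE 0.11, adjusted p = 0.399 and 0.122). Sqstm1, or p62, an autophagy receptor linked to the titin kinase, had 2845 to 4016 and 4257 to 4785 (0.35, SE 0.14), and Trim54, a MuRF ubiquitin ligase of muscle, 0.32 (SE 0.14). Obsl1, the obscurin-like protein that links titin and myomesin at the M-line, went the other way, with 536.4 to 713.8 among WT and 367.3 to 518.8 among KO hearts (−0.48, SE 0.15, adjusted p = 0.405 and 0.189).
The 22 intermediate filament and costamere genes divided into 11 higher and 11 lower (median −0.012), and none was called. Synm encodes synemin, a partner of desmin filaments, and had 355.2 to 522.4 among WT and 190.1 to 316.3 among KO hearts (−0.81, SE 0.20, adjusted p = 0.335 and 0.106), opposite to Des. Dtna, a dystrobrevin, had 0.27, Itgb1bp2, or melusin, 0.19, and Parva, or α-parvin, −0.29.
Of the 12 thick and thin filament genes, 11 had higher values (median 0.20, range −0.038 to 0.31; 0 after quantile normalization), where 87.9% of the brightest 2% of genes did so. Among the 11 were Lmod2, a thin filament nucleator (0.31), Tpm1 (0.27), Tnnc1 (0.25), Tnnt2 (0.21) and Myh6 (0.21), and none of the 12 was called. Lmod2 was 12399 to 14212 in the WT hearts and 27280 in KO replicate 1, against 13556 to 14179 in the other KO hearts.
Among 13 chaperones and turnover genes of the sarcomere, 11 had higher values (median 0.12, and 0.037 after quantile normalization) and none was called. Higher values were found for 46.9% of all genes and 87.9% of the brightest 2%. Hspb1, a small heat shock protein, had 17627 to 21306 among WT and 22596 to 32334 among KO hearts (0.38, SE 0.15), and Cryab, the αB-crystallin that protects desmin and titin, 0.17 (SE 0.11). Stub1, a chaperone-linked ubiquitin ligase, had 0.18 (SE 0.12). Fbxo32, or atrogin-1, a muscle ubiquitin ligase, had lower values in all 4 KO hearts (3271 to 3847 and 2650 to 3106, −0.30, SE 0.11, adjusted p = 0.448 and 0.162).

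**Figure D5:**
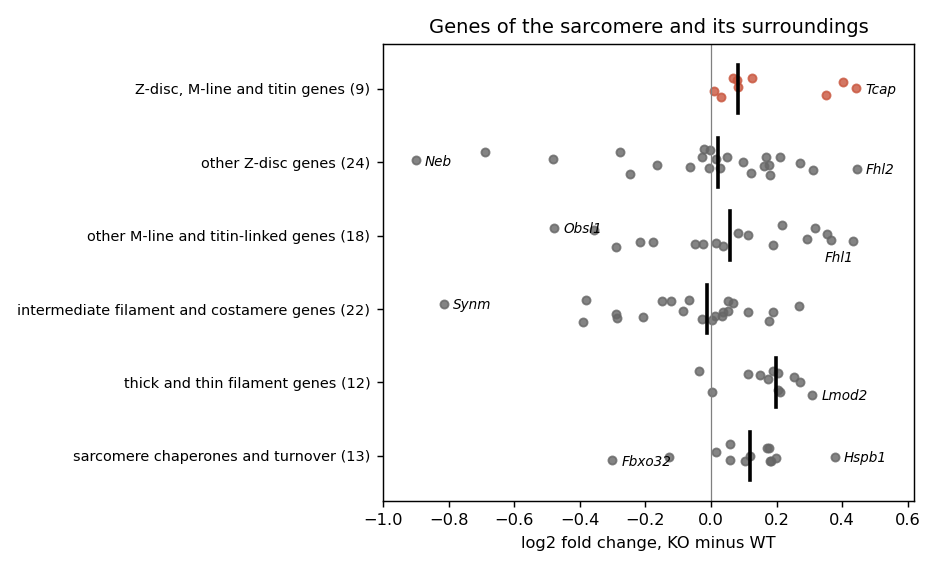
log2 ratio of KO against WT (x axis) of each measured gene in 6 lists (y axis, number of genes in brackets). Points are genes, scattered vertically for clarity, and vertical bars are list medians. The medians run from −0.012 for the intermediate filament and costamere genes to 0.20 for the thick and thin filament genes, under the deposited scaling, and the genes named in the plot are among those farthest from 0 in each list.

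Markers of several cell types also had unequal values in the genotypes. All 8 cardiac myocyte markers were bright and had higher values by 0.15 to 0.23 (median 0.20, 0 called), where 87.9% of the brightest 2% of genes were higher, and after quantile normalization their median was 0.0045. Their mean log2 signal was 15.6 to 16.0 among WT and 15.9 to 16.2 among KO hearts. Myh6, Actc1, Tnnt2, Tnni3 and Myl3 of these markers are also in the thick and thin filament list, so the 2 medians are not separate observations. All 10 atrial myocyte markers had lower values (median −1.88), 3 of them called in the trended fit (Stard10, Fgf12 and Tbx5), and their summed signal was 163332 to 271441 among WT and 20514 to 201515 among KO hearts. By mean log2 signal the lowest of the KO hearts was replicate 3 for the atrial markers (9.29) and replicate 4 for the 9 genes (14.7, where WT replicates 2 and 4 had 14.7 and 14.6). Of 12 skeletal muscle markers, 7 of which lay under a mean signal of 50, 5 had higher and 7 lower values (median −0.41, and 0.033 without WT replicate 1). The brightest of them, Myl1, had 0.44 and was not called, and 1, Tnni2, was called lower in the trended fit (−2.10). All 8 fibroblast, 7 endothelial and 8 macrophage markers had lower values (medians −0.72, −0.36 and −0.37, 0 called). Medians were 0.18 for 6 ventricular myocyte, 0.36 for 4 adipocyte and 0.59 for 3 red blood cell markers, with 0 called. The part of these cells in the values of the 9 genes was not tested.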

How the data were processed

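RNA of each of the 8 hearts was read on its own array. Values deposited by the authors are probeset intensities on a linear scale with an equal trimmed mean in every array (2% trimmed at each end). Expression Console (Affymetrix), Partek and RMA are listed among the submitters' processing tools, but values of 0.219 to 124739 are not log2 RMA values, so their log2 was taken, with no floor. Of 45101 probesets, 34958 have 1 gene symbol in the platform annotation used, and the brightest by mean over the 8 arrays stood for each of 18194 genes. Genotypes came from the sample titles.

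The genotypes were compared by limma 3.58.1 under R 4.3.3 (lmFit and eBayes, two-sided p-values, Benjamini-Hochberg over all genes, threshold 0.05). The common-variance fit, nearest to the random variance model of the methods, was the main one and the trended fit an alternative. The fits were tested on simulated data. The 9 genes and the 15 other lists, of which 161 of 170 entries were measured, were chosen with earlier results of these data known. Some lists share genes, among them Mybpc3, Fhl2, Myl2 and Actn3. Genes named are the 9 with every probeset, Ncoa2, up to 4 genes of each list with the smallest p in either fit, called list genes, markers and the 5 genes most like the 9. The labels name no animals, while the study describes each array as RNA of a single mouse. The p-values measure the spread between these samples, which may be partly technical. Alternatives were the trended, robust and random variance models, a replicate block, quantile normalization, median centring, averaging a gene's probesets, dropping x_at and s_at probesets, dropping dim genes, and leaving out each array in turn. Trended versions of the block, quantile and x_at or s_at alternatives were chosen after seeing the data. Plots used matplotlib 3.10.9 under Python 3.11.15.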

Additional observations from a re-analysis of the deposited data

Results flagged for a closer look

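Over 20 probesets of the 9 genes and both genotypes, 2 of 40 groups of 4 hearts were flagged. In each of these, 1 heart stood far from the others on the log2 scale. Chance flags about 1 in 20 groups. For Myoz2, WT replicate 4 had a signal of 35077, where the other WT hearts had 40257 to 40699. For the Des probeset near background, WT replicate 2 had a signal of 3.83, where WT replicates 1 and 4 had 37.2 and 42.8.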

How the results depend on the processing

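Of the 9 genes, Ldb3 and Des kept their direction and stayed uncalled under all 28 alternatives, with log2 ratios of 0.026 to 0.19 and 0.25 to 1.06. The 1.06 for Des came from averaging in its probeset near background (log2 ratio 1.78, SE 0.76). With 1 heart left out Des was at 0.25 to 0.44. Myom1 (0.31 to 0.50) and Tcap (0.32 to 0.69) kept their direction too and were called only in the trended fit without KO replicate 4 (0.50 and 0.69). Under quantile normalization, in either fit, the log2 ratio was −0.085 for Ttn, −0.11 for Myom2, −0.12 for Actn2, −0.063 for Myoz2 and −0.11 for Csrp3, and the medians were −0.063 for the 9 genes, 0 for thick and thin filament genes and 0.0045 for cardiac myocyte markers. Myom2 was at −0.16 as the mean of all its probesets and at −0.29 once x_at and s_at probesets were dropped (in either fit), and at −0.022 without WT replicate 4. Actn2 was at −0.043 without WT replicate 2, −0.025 without KO replicate 1 and −0.0046 without KO replicate 2, and without KO replicate 1 Myoz2 was at −0.00088 and Csrp3 at −0.024. The highest log2 ratios with 1 heart left out of the common-variance fit were 0.080 for Myom2, 0.048 for Actn2, 0.13 for Myoz2 and 0.14 for Csrp3. The cause of these shifts was not tested.

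Over all genes, 1 was called higher and 3 lower. The counts were 22 and 46 in the trended fit, 0 and 1 with the mean of all probesets, 4 and 18 without dim genes, 17 and 29 with quantile normalization in the trended fit, and 25 and 50 in that fit without x_at and s_at probesets. Quantile normalization in the common-variance fit called 0 higher. Leaving out 1 heart gave 0 to 1 higher and 1 to 2 lower in the common-variance fit, and 2 to 104 higher and 3 to 216 lower in the trended one, the highest counts without KO replicate 4 (104 and 216) and the others 6 and 15, 2 and 3, 4 and 8, and 4 and 18 without WT replicates 1 to 4, and 10 and 44, 10 and 31, and 5 and 26 without KO replicates 1 to 3. The median was −0.15 for intermediate filament and costamere genes with the mean of all probesets, and for skeletal muscle markers −0.89 without dim genes and −0.55 to 0.033 with 1 heart left out, the latter without WT replicate 1.

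Replicate numbers did not pair the hearts: deviations of same-numbered hearts correlated at 0.064, −0.080, −0.019 and 0.108, and 3 of 8 hearts were most like their own number. With the replicate block 0 genes were called higher and 0 lower (26 and 51 with the trended variance), and none of the 9 was called.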
